A study of Mus musculus with 54 samples.

Results

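The genes described here control how much RAS is switched on and how much diacylglycerol is available to switch it on in CD4+ T cells. They were taken by name and number 10 of the 55385 genes in both count tables: the exchange factors Rasgrp1, Rasgrp2, and Rasgrp4, the diacylglycerol kinases Dgka, Dgkz, and Dgkd, and the RAS GTPase-activating genes Rasa1, Rasa2, Rasa3, and Nf1. RNA was sequenced from naive CD4+ T cells of pooled lymph nodes and spleens of adult C57BL/6 mice, left unstimulated (0 h) or kept for 4 h or 20 h on plate-bound anti-CD3 at 3 µg/ml together with anti-CD28 at 1 µg/ml. The CD5/CD6 experiment holds 36 samples of WT, Cd5-/-, Cd6-/-, and Cd5-/-Cd6-/- cells, purified with a negative selection kit. The LAT experiment holds 18 samples of WT and Lat-/- cells, and both of its genotypes were sorted by flow cytometry from Latfl-dtr maT-Cre mice, WT as hDTR+ and Lat-/- as hDTR- cells. Both therefore come from animals with the floxed reporter allele and the maT-Cre transgene, and hDTR- cells are those that had lost the allele. Every genotype and time has 3 replicates, and the experiments were never fitted together. Cd5-/- mice were made by others and backcrossed, and the Cd6-/- and Cd5-/-Cd6-/- mice were made by deletion. Cd5, Cd6, and Rasgrp2 all lie on chromosome 19, with Rasgrp2 4.3 Mb from Cd5.

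In a T cell, the antigen receptor uses the adaptor LAT to recruit phospholipase C-gamma, which produces diacylglycerol in the plasma membrane. Diacylglycerol binds RASGRP1, and diacylglycerol kinases remove this lipid by phosphorylating it. RASGRP proteins load RAS (and, for RASGRP2, mainly RAP1) with GTP. RASA1, RASA2, RASA3, and neurofibromin, the product of Nf1, speed up GTP hydrolysis by RAS and so turn it off. RASGRP1 is the best known RAS activator of T cells, RASGRP2 serves integrin adhesion in platelets and leukocytes, RASGRP4 is known mainly from mast cells and neutrophils, and the alpha and zeta diacylglycerol kinases are known as brakes on T cell receptor signaling.

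Libraries held from 20554354 to 45222554 counts in the CD5/CD6 experiment and from 17784644 to 28501095 in the LAT experiment. Levels are given as CPM, read counts relative to the library total after scaling with TMM factors, and at this depth 3 counts in a library correspond to 0.0631 to 0.136 CPM and 0.105 to 0.176 CPM. The 5 CD4 T cell markers summed to 3125 CPM or more in every 0 h library of both experiments. By 20 h they summed to 1457 to 1802 CPM in the CD5/CD6 experiment. In the LAT experiment they then summed to 1619 to 1901 CPM in WT and 2922 to 3197 CPM in Lat-/- libraries. CPM are shares of a library, so a change in total RNA per cell does not show in them. The part of such a change in the differences described here was not tested. Markers of other cells differed between the experiments: the 4 B cell markers summed to a median of 102 CPM in the 0 h libraries of the CD5/CD6 experiment and to 2.73 CPM in those of the LAT experiment. In the CD5/CD6 experiment they were at a median of 1.73 CPM by 20 h, and the 4 monocyte and macrophage markers went from 105 to 0.217 CPM, and the part of these cells in the falls described here was not tested. In the LAT experiment Lat was at 214 to 292 CPM in unstimulated WT cells and at 11.6 to 19.1 CPM in unstimulated Lat-/- cells, and in the CD5/CD6 experiment it was at 649 to 792 CPM in unstimulated WT cells. In the CD5/CD6 experiment 2 libraries went against their labels. In 0 h library 2 labelled Cd5-/-, Cd5 stood at 720 CPM, against 129 and 105 CPM in libraries 1 and 3, and Cd6 at 329 CPM, against 1298 and 1084 CPM. In 0 h library 2 labelled Cd6-/-, Cd6 stood at 1203 CPM, against 349.5 and 251 CPM in libraries 1 and 3, and Cd5 at 172.5 CPM, against 724 and 719 CPM. Each thus showed the pattern of the other label. Both were kept under their labels, and counts and folds that rest on them are also given without them. In bulk RNA, fewer cells of a type and less RNA per cell cannot be told apart.

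Since most of these genes moved together on stimulation, the RefSeq promoters (GRCm38.p6, 250 bases before to 50 after each start) of 4 members that fell and of Nf1, which rose at 4 h, are printed here, 5' to 3' on the gene's strand. Capitals mark matches, on either strand, to 6 motifs searched: FOXO (TGTTTAC), KLF (CACACCC), ETS (CCGGAAG), EGR (GTGGGCG), AP-1 (TGANTCA), and NFAT (TGGAAA). None of the matches found overlapped another.
Rasgrp1, chr2:117342828-117343127, minus strand: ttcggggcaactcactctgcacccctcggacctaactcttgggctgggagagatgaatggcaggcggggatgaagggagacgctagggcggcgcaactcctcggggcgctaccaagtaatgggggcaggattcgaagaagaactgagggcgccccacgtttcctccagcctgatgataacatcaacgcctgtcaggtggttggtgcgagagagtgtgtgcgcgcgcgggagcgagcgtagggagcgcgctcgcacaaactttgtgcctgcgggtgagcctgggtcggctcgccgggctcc
Rasgrp2, chr19:6401455-6401754, plus strand: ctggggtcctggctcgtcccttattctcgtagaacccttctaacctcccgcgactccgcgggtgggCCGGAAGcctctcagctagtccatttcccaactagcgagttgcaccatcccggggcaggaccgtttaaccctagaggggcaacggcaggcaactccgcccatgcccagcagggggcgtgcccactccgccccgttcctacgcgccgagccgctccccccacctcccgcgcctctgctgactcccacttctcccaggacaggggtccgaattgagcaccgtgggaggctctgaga
Rasa3, chr8:13677538-13677837, minus strand: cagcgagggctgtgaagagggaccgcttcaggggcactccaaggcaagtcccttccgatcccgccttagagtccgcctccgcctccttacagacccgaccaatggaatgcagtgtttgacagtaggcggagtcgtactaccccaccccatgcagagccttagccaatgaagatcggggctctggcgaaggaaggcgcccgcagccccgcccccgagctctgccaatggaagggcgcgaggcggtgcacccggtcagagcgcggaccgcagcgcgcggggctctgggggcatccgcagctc
Dgkz, chr2:91950299-91950598, minus strand: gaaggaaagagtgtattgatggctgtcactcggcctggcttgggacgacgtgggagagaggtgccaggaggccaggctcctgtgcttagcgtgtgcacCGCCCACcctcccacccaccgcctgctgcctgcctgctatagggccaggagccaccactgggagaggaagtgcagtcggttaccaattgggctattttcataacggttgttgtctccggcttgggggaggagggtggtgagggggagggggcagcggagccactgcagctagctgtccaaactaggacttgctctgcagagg
Nf1, chr11:79339642-79339941, plus strand: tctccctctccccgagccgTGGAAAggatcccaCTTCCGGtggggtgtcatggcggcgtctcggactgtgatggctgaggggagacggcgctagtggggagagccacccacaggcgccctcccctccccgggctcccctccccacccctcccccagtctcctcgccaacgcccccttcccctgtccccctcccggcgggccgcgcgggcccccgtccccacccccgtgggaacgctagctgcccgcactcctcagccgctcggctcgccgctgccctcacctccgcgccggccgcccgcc
The Rasgrp1 and Rasa3 windows hold none of the 6 motifs, that of Rasgrp2 holds ETS, that of Dgkz holds EGR, and that of Nf1 holds NFAT and ETS. The other RefSeq promoter of Rasgrp2 and that of Dgkz hold none. RefSeq gave 14 promoters for 9 of the members and none for Rasgrp4. AP-1 was found in 0 of the 14, KLF and FOXO in 1 each, EGR in 2, ETS in 3, and NFAT in 4, beside 7.81%, 7.95%, 3.65%, 7.97%, 8.86%, and 21.43% of all 32851 promoters in that order. The NFAT matches lay only in promoters of Dgka, which has several, and of Nf1, and the KLF match was in Dgka. A match is only a run of letters, and no binding was measured here.

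In unstimulated WT cells Dgka was the most abundant of these mRNAs, and Rasa3 stood far above the other GTPase-activating genes. Levels are compared between genes as CPM per kilobase of gene length in the count table (mean ± SD, n = 3). In the CD5/CD6 experiment, Dgka stood at 220 ± 7.70, Rasa3 at 116 ± 2.27, Rasgrp1 at 113 ± 7.66, Dgkz at 87.6 ± 1.81, and Dgkd at 64.5 ± 7.76. The other members lay far lower, with Rasa1 at 12.9 ± 4.14, Rasgrp2 at 7.48 ± 0.485, Rasa2 at 4.70 ± 0.450, Nf1 at 0.791 ± 0.0519, and Rasgrp4 at 0.388 ± 0.0482. In WT cells from the LAT experiment the order of the 10 means was the same. Rasa3 (113 to 118 over the samples) and Rasgrp1 (107 to 122) overlapped in the CD5/CD6 experiment and are not separated, whereas Dgka lay above every other member in all 6 WT samples. The order of lower members depends on the length used: with the longest coding transcript, the Rasgrp2 level was 40.3 ± 2.62, above Rasa1, because the table gives Rasgrp2 12384 bases and that transcript has 2296. Dgkz likewise passed Rasgrp1, at 132 ± 2.72 against 121 ± 8.21 with the coding lengths.

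Stimulation lowered the mRNA of the RASGRP family in WT cells. Rasgrp1 (ENSMUSG00000027347.18, chr2:117279993-117343001, minus strand) was at 680, 615, and 600 CPM in the 3 unstimulated WT samples of the CD5/CD6 experiment, at 340, 411, and 332 CPM at 4 h, and at 126, 94.7, and 71.2 CPM at 20 h. In the LAT experiment it was at 620, 434, and 655 CPM, then at 305, 348, and 368 CPM, and at 20 h at 163, 163, and 144 CPM. In both experiments the 3 times did not overlap, and the fall at 20 h was 6.49-fold (log2 fold change -2.70 ± 0.20 SE, adjusted p = 7.42e-20) and 3.63-fold (-1.86 ± 0.15, adjusted p = 4.68e-33).

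Rasgrp2 (ENSMUSG00000032946.16, chr19:6399340-6415216, plus strand) fell further than any other member. Its WT samples went from 85.8, 94.9, and 97.1 CPM to 5.86, 8.86, and 11.2 CPM at 4 h and to 4.31, 2.43, and 2.13 CPM at 20 h in the CD5/CD6 experiment. WT samples of the LAT experiment held 115, 123, and 88.1 CPM at 0 h, 15.7, 14.7, and 30.5 CPM at 4 h, and 6.29, 5.90, and 6.27 CPM at 20 h. All stimulated samples thus lay below all unstimulated ones, by 30.9-fold and 17.7-fold at 20 h. The log2 fold changes at 20 h were -4.95 ± 0.23 (adjusted p = 4.63e-31) and -4.14 ± 0.18 (adjusted p = 1.37e-112). Without replicate 1, the further fall of Rasgrp2 from 4 h to 20 h in the CD5/CD6 experiment was -2.13 on the log2 scale, against -1.53 with all samples.

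Rasgrp4 (ENSMUSG00000030589.15, chr7:29134851-29153961, plus strand) was low throughout, at 2.23 to 2.81 CPM in unstimulated WT cells of the CD5/CD6 experiment and 2.66 to 2.90 CPM in those of the LAT experiment. At 20 h these ranges were 0.343 to 0.902 CPM and 0.177 to 0.516 CPM, and the fall passed the test in both (-1.99 ± 0.43, adjusted p = 6.18e-05, and -2.90 ± 0.43, adjusted p = 1.08e-10). A share of 15.37% of its exon bases overlaps Fam98c on the opposite strand, and the use of strand in counting is not given in the sources used here. In the CD5/CD6 experiment the 7 mast cell and granulocyte markers moved in the same direction by 20 h, with a median sum over all genotypes of 18.1 CPM at 0 h, 22.1 CPM at 4 h, and 1.42 CPM at 20 h. Their part in the fall of Rasgrp4 was not tested. In the LAT experiment these markers summed to 8.09 CPM or less in every library, and Ms4a2, S100a8, and S100a9 had no read in any of them.

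The 3 diacylglycerol kinases fell to different degrees. Dgka (ENSMUSG00000025357.8, chr10:128720134-128744855, minus strand) encodes the calcium-binding alpha enzyme. It was at 1022, 1088, and 1028 CPM in unstimulated WT cells of the CD5/CD6 experiment, at 325, 336, and 355 CPM at 4 h, and at 230, 197, and 181 CPM at 20 h. The LAT experiment gave 1246, 1085, and 1090 CPM, then 468, 466, and 680 CPM, and finally 321, 321, and 257 CPM. Most of the fall was present at 4 h (-1.63 ± 0.16, adjusted p = 8.47e-14, and -1.08 ± 0.15, adjusted p = 2.17e-12), and at 20 h it was 5.17-fold and 3.81-fold.

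Dgkz (ENSMUSG00000040479.12, chr2:91932824-91975864, minus strand), which encodes the zeta enzyme, moved least of the 3 by 20 h. It went from 537, 559, and 553 CPM to 378, 349, and 304 CPM at 4 h and 324, 288, and 259 CPM at 20 h in the CD5/CD6 experiment, and from 667, 650, and 593 CPM to 364, 347, and 396 CPM and 369, 381, and 321 CPM in the LAT experiment. The fall was below 2-fold at both times (at 20 h -0.92 ± 0.15, adjusted p = 1.24e-07, and -0.83 ± 0.15, adjusted p = 9.96e-08), and 4 h and 20 h samples overlapped. Dgkd (ENSMUSG00000070738.10, chr1:87853287-87945180, plus strand), which encodes the delta enzyme, fell late. Its WT samples held 441, 495, and 389 CPM at 0 h, 345, 421, and 342 CPM at 4 h, and 175, 155, and 120 CPM at 20 h in the CD5/CD6 experiment, where 0 h and 4 h samples overlapped. The LAT experiment gave 492, 294, and 466 CPM, then 349, 403, and 415 CPM, and then 154, 152, and 148 CPM. At 4 h the Dgkd change did not pass in either experiment (adjusted p = 0.309 and 0.711), and at 20 h it fell 2.95-fold (-1.56 ± 0.17, adjusted p = 2.09e-12) and 2.76-fold (-1.46 ± 0.15, adjusted p = 3.22e-21).

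The 4 GTPase-activating genes did not move as one. Rasa3 (ENSMUSG00000031453.16, chr8:13566948-13677603, minus strand), whose protein acts on both RAS and RAP1, was at 578, 600, and 595 CPM in unstimulated WT cells of the CD5/CD6 experiment, at 132, 236, and 221 CPM at 4 h, and at 48.9, 39.9, and 33.7 CPM at 20 h. In WT cells from the LAT experiment it was at 662, 510, and 624 CPM, at 314, 341, and 560 CPM at 4 h, where library 3 overlapped the unstimulated samples, and at 62.0, 58.1, and 55.2 CPM at 20 h. The fall at 20 h was 14.5-fold and 10.2-fold (-3.85 ± 0.20, adjusted p = 3.41e-28, and -3.36 ± 0.16, adjusted p = 1.4e-94). At 4 h it was -1.59 ± 0.18 (adjusted p = 1.38e-11) and -0.56 ± 0.15 (adjusted p = 0.000598), and the latter did not pass without replicate 1 (-0.38, adjusted p = 0.2045).

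Rasa2 and Nf1 rose at 4 h and came back down. Rasa2 (ENSMUSG00000032413.12, chr9:96539300-96631617, minus strand) was at 74.7, 81.6, and 67.3 CPM in WT cells from the CD5/CD6 experiment, at 234, 233, and 175 CPM at 4 h, and at 64.3, 55.8, and 41.1 CPM at 20 h. Nf1 (ENSMUSG00000020716.16, chr11:79339693-79581612, plus strand) went from 12.5, 13.4, and 11.8 CPM to 46.5, 46.5, and 33.6 CPM and then to 21.4, 16.4, and 10.1 CPM. At 4 h every sample of both genes was above every unstimulated one, by 2.87-fold for Rasa2 (1.52 ± 0.18, adjusted p = 2.46e-11) and 3.37-fold for Nf1 (1.75 ± 0.25, adjusted p = 1.33e-08).

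The LAT experiment gave the same shape in WT cells. Rasa2 was there at 72.4, 39.2, and 70.5 CPM at 0 h, 160, 178, and 128 CPM at 4 h, and 51.2, 46.5, and 44.6 CPM at 20 h, and Nf1 at 11.8, 7.15, and 13.2 CPM, 31.4, 35.9, and 20.4 CPM, and 15.8, 15.1, and 13.1 CPM. The rises at 4 h were 1.35 ± 0.15 (adjusted p = 5.02e-17) and 1.44 ± 0.20 (adjusted p = 2.06e-12) on the log2 scale. By 20 h Rasa2 was below its unstimulated level in the CD5/CD6 experiment (-0.47 ± 0.18, adjusted p = 0.0258, and 0.09447 without replicate 2), whereas the difference in the LAT experiment did not pass (-0.36 ± 0.15, adjusted p = 0.0568, and 0.0009192 without replicate 2). Nf1 at 20 h passed in neither with all samples (adjusted p = 0.309 and 0.0599), and in both without replicate 3 (0.00438 and 0.004355). Rasa1 (ENSMUSG00000021549.14, chr13:85214780-85289130, minus strand) had the smallest range of the 9 members set side by side over the 18 conditions (0.886 on the log2 scale), and lay between 57.2 and 123 CPM in all 18 WT samples. Against 0 h it passed once in WT cells, with a rise of 0.46 ± 0.15 at 20 h in the LAT experiment (adjusted p = 0.00812), which was 0.236 without replicate 2 (adjusted p = 0.3371). In the CD5/CD6 experiment the difference at 20 h was -0.29 ± 0.20 (adjusted p = 0.298, and 0.01347 without replicate 3).

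**Figure D1:**
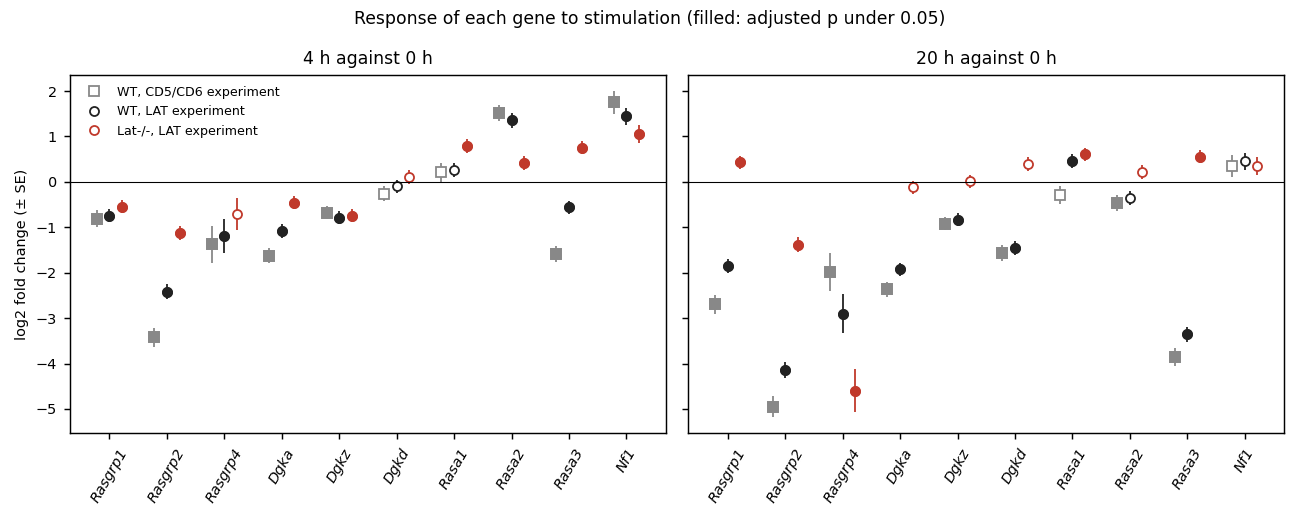
Log2 fold change (± SE, y axis) of each of the 10 genes at 4 h (left) and 20 h (right) against 0 h, in WT cells of both experiments (gray squares, black circles) and in Lat-/- cells (red circles), 3 samples a group. Filled symbols passed an adjusted p of 0.05, and at 20 h the black symbol of Rasa3 is at -3.36 and the red one at 0.55.

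Counted over the 10 members, 6 fell and 2 rose at 4 h in WT cells from the CD5/CD6 experiment, where 15.2% of all tested genes fell and 13.3% rose. In WT cells from the LAT experiment the same numbers, 6 and 2, stood beside 14.8% and 14.2% of all genes. At 20 h, 8 fell and 0 rose in the CD5/CD6 experiment (21.1% and 16.9% of all genes), and 7 fell and 1 rose in the LAT experiment (18.2% and 16.5%). From 4 h to 20 h, 7 fell and 0 rose in the CD5/CD6 experiment (16.7% and 13.8% of all genes), and 8 fell and 0 rose in the LAT experiment (16.1% and 13.4%). These shares are over every gene with a read, many of them near 0. Among the 16143 and 13928 genes that edgeR's filter on low counts kept, 39.6% and 35.2% fell at 20 h, 74.2% and 67.9% passed in either direction, and the median log2 change was -0.143 and -0.084. At 4 h, 59.0% and 58.6% of them passed in either direction. The median over the members at 20 h was -1.77 and -1.66.

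Without LAT, unstimulated cells held these mRNAs at levels that passed no test against WT. At 0 h, 0 of the 10 members passed, beside 1.59% of all genes (2 members and 1693 of all genes had an unadjusted p under 0.05, and DESeq2 called 0 members). Rasgrp4 showed the largest difference, with 4.34, 3.45, and 8.21 CPM in Lat-/- samples against 2.90, 2.73, and 2.66 CPM in WT (0.95 ± 0.35 on the log2 scale, adjusted p = 0.266), and these samples did not overlap. Those of Dgkz did not overlap either, with Lat-/- lower (-0.25 ± 0.15, adjusted p = 0.9384). The other 9 differences lay between -0.30 and 0.08. Mast cell and granulocyte markers summed to 0.699 to 1.38 CPM in these Lat-/- libraries and to 1.94 to 2.52 CPM in the WT ones.

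At 20 h the same comparison was wide apart. Rasa3 was at 968, 1044, and 767 CPM in Lat-/- cells and at 62.0, 58.1, and 55.2 CPM in WT cells, a 15.8-fold difference (3.99 ± 0.17, adjusted p = 8.24e-126). In Lat-/- cells it had risen, from 654, 603, and 640 CPM at 0 h to 995, 1205, and 1003 CPM at 4 h (0.76 ± 0.15, adjusted p = 5.57e-06), and it was still 1.47-fold above the unstimulated level at 20 h (0.55 ± 0.15, adjusted p = 0.00283). The call at 20 h was lost without replicate 1 (adjusted p = 0.09363) and without replicate 2 (0.06341). The response of Rasa3 in Lat-/- cells differed from that of WT by 1.32 ± 0.21 at 4 h (adjusted p = 8.14e-09) and by 3.91 ± 0.21 at 20 h (adjusted p = 2.76e-71).

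Rasgrp1 fell in Lat-/- cells at 4 h as in WT and then returned. Its Lat-/- samples were at 457, 441, and 491 CPM at 0 h, at 298, 269, and 382 CPM at 4 h, and at 635, 702, and 533 CPM at 20 h. At 4 h they overlapped the WT samples (-0.11 ± 0.15, adjusted p = 0.718), and the fall from 0 h was -0.55 ± 0.15 (adjusted p = 0.00215, and 0.1096 without replicate 1). At 20 h all of them were above all WT samples, 3.98-fold (1.99 ± 0.15, adjusted p = 1.75e-37). The rise over 0 h in Lat-/- cells was small (0.43 ± 0.15, adjusted p = 0.0361) and did not pass without replicate 1 or 2 (adjusted p = 0.3523 and 0.3243), with the filter on low counts (0.05311), or without TMM factors (0.08961).

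Rasgrp2 fell less in Lat-/- than in WT cells at both times. From 113, 105, and 87.0 CPM it went to 37.5, 54.2, and 48.1 CPM at 4 h and to 35.6, 40.1, and 41.4 CPM at 20 h. All Lat-/- samples were above all WT samples at both times, by 2.29-fold and 6.34-fold. The differences of response were 1.29 ± 0.22 (adjusted p = 2.27e-07) and 2.76 ± 0.23 (adjusted p = 5.16e-31).

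Rasgrp4 went the other way at 20 h. The 3 Lat-/- samples held 7, 3, and 5 counts, or 0.354, 0.111, and 0.210 CPM, and overlapped the WT samples at 0.385, 0.516, and 0.177 CPM. The fall from 0 h was 24.15-fold in Lat-/- cells against 7.48-fold in WT cells, and the difference of response was -1.69 ± 0.65 (adjusted p = 0.038). That call was lost without replicate 2 (-1.14, adjusted p = 0.3391) and without replicate 3 (-1.49, adjusted p = 0.1489), and 1 sample was at 3 counts, so its size is poorly known. At 4 h the Lat-/- samples, at 3.77, 3.93, and 2.13 CPM, were 2.72-fold above WT (1.45 ± 0.38, adjusted p = 0.000932).

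**Figure D2:**
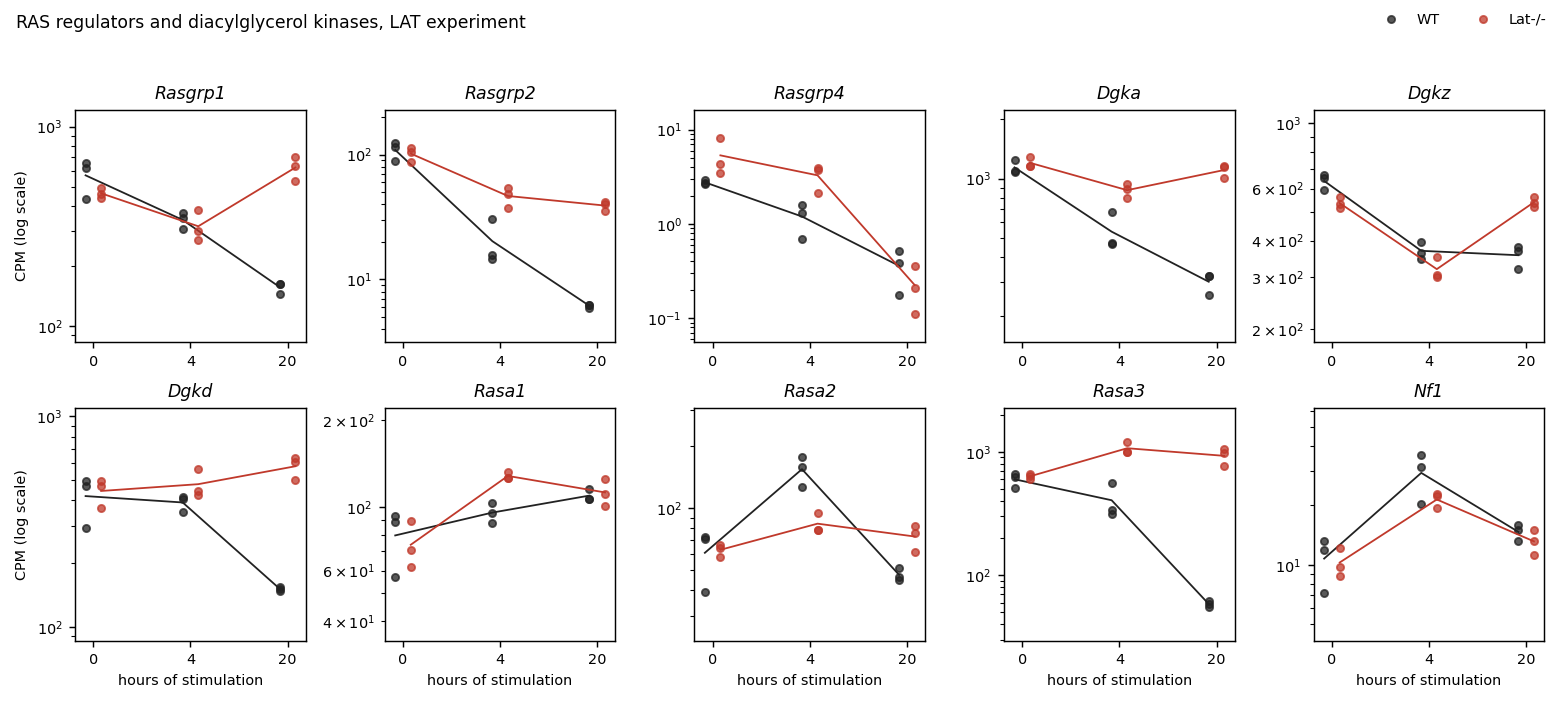
CPM on a log scale (y axis) of each of the 10 genes in the LAT experiment at 0, 4, and 20 h (x axis, evenly spaced), with 1 point per sample, 3 samples per genotype and time, and lines through the means. In the Rasa3, Rasgrp1, Dgka, and Dgkd panels the WT points (black) drop at 20 h and the Lat-/- points (red) do not.

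In Lat-/- cells Dgka and Dgkz stood near their unstimulated levels at 20 h. Dgka was at 1292, 1157, and 1160 CPM at 0 h, at 800, 881, and 941 CPM at 4 h, and at 1165, 1142, and 1012 CPM at 20 h, with a fall at 4 h of -0.46 ± 0.15 (adjusted p = 0.0129, and 0.4397 without replicate 1). Dgkz was at 560, 515, and 532 CPM, fell to 302, 307, and 351 CPM at 4 h (-0.74 ± 0.15, adjusted p = 9.78e-06), and stood at 519, 561, and 537 CPM at 20 h. Dgkd was at 465, 366, and 493 CPM, then at 422, 441, and 563 CPM, and then at 603, 633, and 498 CPM, with a difference at 20 h of 0.39 ± 0.15 that did not pass (adjusted p = 0.0697, and 0.002435 without replicate 3). At 20 h every Lat-/- sample of the 3 genes was above every WT sample, 3.69-fold for Dgka, 1.51-fold for Dgkz, and 3.82-fold for Dgkd. The differences of response at 20 h were 1.81 ± 0.21 (adjusted p = 7.55e-17), 0.845 ± 0.208 (adjusted p = 0.000306), and 1.85 ± 0.21 (adjusted p = 2.93e-17). At 4 h only that of Dgka passed among the 3 (0.62 ± 0.21, adjusted p = 0.0195), and it was lost without replicate 1 (0.2026) and without replicate 2 (0.06144).

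The rise of Rasa2 at 4 h was smaller without LAT. Lat-/- samples went from 57.8, 64.2, and 66.4 CPM to 95.3, 78.7, and 78.5 CPM at 4 h and to 75.8, 81.7, and 61.2 CPM at 20 h. At 4 h all of them lay below all WT samples, which held 160, 178, and 128 CPM, and the difference of response was -0.93 ± 0.22 (adjusted p = 0.000264, and 0.2037 without replicate 2, where it was -0.491). The rise in Lat-/- cells itself was near the threshold (0.42 ± 0.15, adjusted p = 0.0395) and did not pass with DESeq2 (0.06916), with the filter on low counts (0.07351), without TMM factors (0.1446), or without replicate 1 (0.7477). At 20 h the difference of response was 0.57 ± 0.22 (adjusted p = 0.0335), and it did not pass with DESeq2 (0.1026), with the filter (0.06913), without replicate 1 (0.5209), or without replicate 3 (0.07609).

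Nf1 and Rasa1 showed no difference of response that passed with all samples and TMM factors. Nf1 rose in Lat-/- cells from 9.77, 8.81, and 12.2 CPM to 22.7, 19.4, and 22.2 CPM at 4 h (1.06 ± 0.20, adjusted p = 1.51e-06) and was at 15.0, 13.2, and 11.2 CPM at 20 h. Rasa1 was at 70.6, 61.9, and 89.0 CPM, at 126, 132, and 126 CPM at 4 h, and at 125, 111, and 100 CPM at 20 h. It rose at both times in Lat-/- cells (0.79 ± 0.15, adjusted p = 3.85e-06, and 0.60 ± 0.15, adjusted p = 0.00131), and the rise at 20 h did not pass without replicate 1 (0.2077). The differences from the WT response were -0.38 ± 0.27 (adjusted p = 0.489) and -0.10 ± 0.28 (adjusted p = 1.00) for Nf1, and 0.53 ± 0.21 (adjusted p = 0.078) and 0.14 ± 0.21 (adjusted p = 0.844) for Rasa1. That of Rasa1 at 4 h passed without TMM factors (0.686, adjusted p = 0.01249) and without replicate 2 (0.672, 0.03553). At 4 h every Lat-/- sample of Rasa1 was above every WT sample (88.1 to 103 CPM). This difference between genotypes passed with all samples, but not without replicate 1 (0.409, adjusted p = 0.2211).

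In Lat-/- cells, 4 members rose and 4 fell at 4 h, beside 7.38% and 8.05% of all genes, and at 20 h 3 rose and 2 fell, beside 5.35% and 5.34%. Without replicate 1 these totals of 8 and 5 members were 5 and 2, and without replicate 2 the total at 20 h was 3. From 4 h to 20 h, 2 rose and 2 fell, beside 5.39% and 4.74%. Against WT, 5 members were higher and 1 was lower in Lat-/- cells at 4 h (11.9% and 12.0% of all genes), and 7 were higher and 0 lower at 20 h (17.6% and 17.6%). The response differed upward for 3 and downward for 1 at 4 h (7.42% and 7.58% of all genes), and upward for 7 and downward for 1 at 20 h (13.5% and 12.8%, with 6 to 7 members in all when 1 replicate was left out). Among the 13928 genes kept by the filter, 31.6% passed in the Lat-/- response at 4 h and 20.1% at 20 h. Against WT, 49.1% of them passed at 4 h (24.1% higher in Lat-/- cells) and 69.0% at 20 h (34.3% higher). The response differed for 31.5% of them at 4 h, and upward for 27.3% and downward for 26.8% at 20 h. The members' median difference of response was 1.33 at 20 h, beside 0.042 over those genes.

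Markers of T cell states and subsets also differed between the genotypes, those of activation and of regulatory and gamma delta T cells already at 0 h. The 4 naive T cell markers summed to 5378 to 5703 CPM in unstimulated WT libraries, to 2307 to 2426 CPM in WT at 20 h, and to 7503 to 8368 CPM in Lat-/- at 20 h. A sum of 4 activation genes, Nr4a1 and Myc among them, was 438.2 to 556.7 CPM in unstimulated WT and 248.2 to 361.5 CPM in unstimulated Lat-/- libraries. At 4 h it was 9311 to 12460 CPM in WT libraries and 1618 to 1987 CPM in Lat-/- ones. The regulatory T cell marker was at 50.3 to 62.4 CPM in unstimulated WT and 16.3 to 24.5 CPM in unstimulated Lat-/- libraries, and at 29.4 to 30.9 and 2.30 to 6.01 CPM at 20 h. The gamma delta T cell marker was at 21.6 to 29.4 and 11.2 to 12.4 CPM when unstimulated. At 20 h its order was reversed, at 4.24 to 4.95 CPM in WT and 6.93 to 9.98 CPM in Lat-/- libraries. The part of these in the differences of the members was not tested.

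The balance of kinase to Rasgrp1 mRNA moved in opposite directions at 20 h. The ratio of the summed per-length levels of Dgka, Dgkz, and Dgkd to that of Rasgrp1 was 3.31 ± 0.280 (SD, n = 3) in unstimulated WT cells of the CD5/CD6 experiment, 2.81 ± 0.219 at 4 h, and 6.56 ± 1.02 at 20 h. The LAT experiment gave 4.05 ± 0.746, 3.76 ± 0.322, and 5.07 ± 0.129 in WT cells, and all 20 h samples (4.92 to 5.16) lay above all 0 h samples (3.35 to 4.84). In Lat-/- cells it was 4.88 ± 0.350, 5.45 ± 0.676, and 3.64 ± 0.268, and all 20 h samples (3.37 to 3.90) lay below all 0 h samples (4.56 to 5.25). As a ratio of several members it carries no test. With the lengths of the longest coding transcripts the ratios were higher, and the Lat-/- samples at 20 h (5.25 ± 0.399) again lay below the WT samples (7.26 ± 0.213), but the WT samples at 20 h (7.02 to 7.42) then overlapped those at 0 h (4.86 to 7.12).

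**Figure D3:**
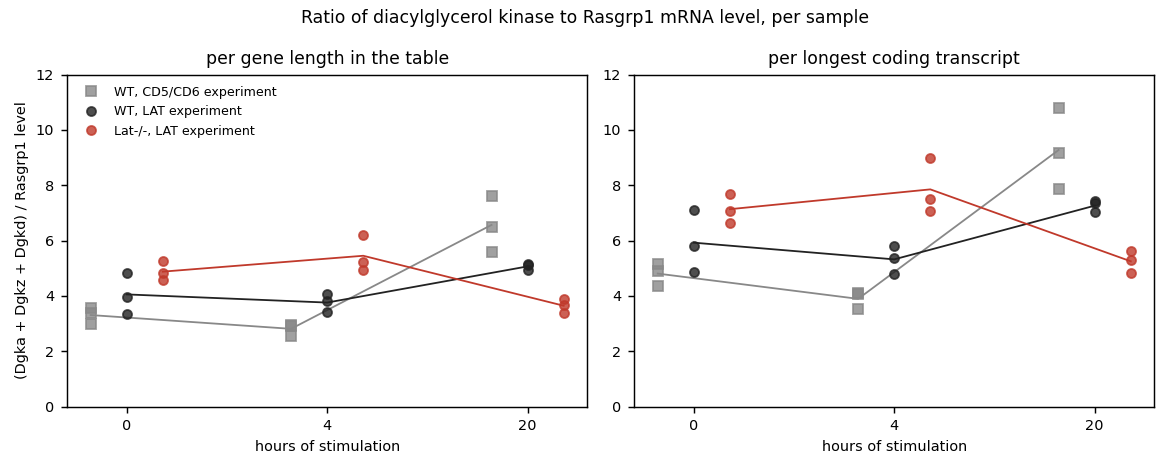
Ratio of summed Dgka, Dgkz, and Dgkd level to Rasgrp1 level (y axis, from 0) at 0, 4, and 20 h, per gene length in the count table (left) and per longest coding transcript (right), with 1 point per sample and lines through the means. On the left, WT samples (gray and black) are highest at 20 h, at means of 6.56 and 5.07, and the Lat-/- samples (red) lowest, at 3.64.

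Within the families the makeup changed too. Rasa3 made up 86.4% ± 2.96 (SD, n = 3) of the summed per-length level of the 4 GTPase-activating genes in unstimulated WT cells of the CD5/CD6 experiment and 35.1% ± 0.812 at 20 h. In the LAT experiment its share went from 88.6% ± 1.596 to 37.8% ± 0.446 in WT cells and was 89.7% ± 0.825 in Lat-/- cells at 20 h. The share of Dgka among the 3 kinases went from 59.1% ± 0.646 to 38.4% ± 0.811 and from 59.6% ± 1.18 to 44.2% ± 1.47 in the WT cells from the 2 experiments, and it was 57.7% ± 1.05 in Lat-/- cells at 20 h. These shares use the lengths in the count table.

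Cells without CD5, CD6, or both gave no member that passed against WT in the fit without a replicate block. Over 9 comparisons and 90 member tests, 0 passed (4 had an unadjusted p under 0.05, and DESeq2 gave 0), beside 0.0344% of all gene tests. The differences lay between -0.98 and 0.36 on the log2 scale with a median size of 0.0995, and 3 of the 90 were larger than 0.5. The widest, that of Rasgrp4 in Cd5-/-Cd6-/- cells at 20 h, rests on samples at 0.1185 to 0.442 CPM. Without library 2 of each of the 0 h groups labelled Cd5-/- and Cd6-/- 0 passed as well, and the median size was 0.105.

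The other differences above 0.5 were both in cells labelled Cd5-/- at 4 h, where Cd5 was at 61.6 to 150.3 CPM in the 3 samples against 1400 to 1684 CPM in WT. Rasgrp2 was there at 4.17, 4.52, and 6.79 CPM, against 5.86, 8.86, and 11.2 CPM in WT, and Rasa3 at 109, 138, and 150 CPM, against 132, 236, and 221 CPM. The samples of the genotypes overlapped for both genes (-0.75 ± 0.20, adjusted p = 0.165, and -0.57 ± 0.18, adjusted p = 0.4015). Without replicate 3 both passed (adjusted p = 0.002477 and 0.003167), and Rasgrp2 passed with the replicate number as a block (-0.76 ± 0.19, adjusted p = 0.04562). Same-numbered samples of these 2 groups deviated together, with a lowest correlation of 0.157 over the 3 pairs. In Cd5-/-Cd6-/- cells at 4 h the corresponding differences were -0.27 ± 0.20 and 0.23 ± 0.18. The gamma delta T cell marker was then at 49.57 to 56.02 CPM in cells labelled Cd5-/-, against 18.73 to 20.84 CPM in WT. In Cd5-/-Cd6-/- cells it was at 52.68 to 74.6 CPM. The B cell markers summed to 29.81 to 44.27 CPM in cells labelled Cd5-/- and 49.56 to 175.7 CPM in WT, and the regulatory T cell marker overlapped. The part of such cells in the differences of Rasgrp2 and Rasa3 was not tested.

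The responses of the knockouts to stimulation resembled those of WT in direction. Over 6 responses and 60 member tests, 39 fell and 6 rose, beside 17.9% and 14.6% of all gene tests, and 40 fell and 7 rose without library 2 of each of the 0 h groups labelled Cd5-/- and Cd6-/-. Among genes kept by the filter on low counts, 55.4% to 58.6% passed in these responses at 4 h and 72.7% to 74.9% at 20 h. Rasgrp2 was 38.4-fold lower at 20 h in Cd5-/-Cd6-/- cells and 37.6-fold lower in cells labelled Cd5-/-, and Rasa3 12.8-fold and 14.9-fold lower. Without those libraries the falls in cells labelled Cd5-/- were 39.45-fold and 15.4-fold. Of 60 differences from the WT response, 0 passed (2 had an unadjusted p under 0.05, and DESeq2 gave 0), beside 0.00155% of all gene tests, with differences from -0.72 to 0.77. Without those libraries 0 passed too (3 had an unadjusted p under 0.05), with differences from -0.72 to 1.09. With all libraries the SE ran from 0.204 to 0.616, the widest being those of Rasgrp4. In the 0 h libraries labelled Cd6-/-, library 3 was lower than libraries 1 and 2 in several members, such as Rasgrp1 at 419 against 700 and 681 CPM and Dgkd at 273 against 462 and 500.5 CPM.

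**Figure D4:**
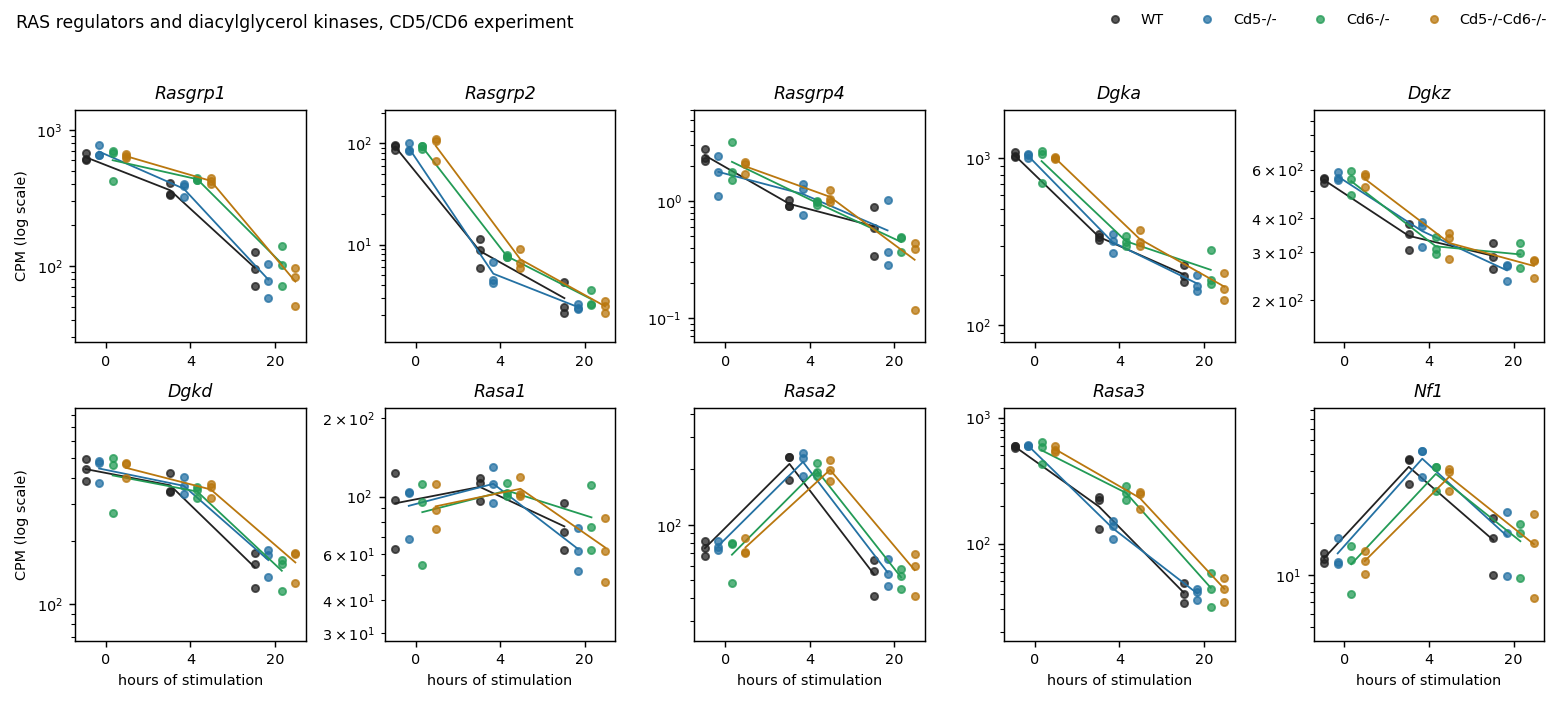
CPM on a log scale (y axis) of each of the 10 genes in the CD5/CD6 experiment at 0, 4, and 20 h (x axis, evenly spaced), with 1 point per sample, 3 samples per genotype and time, and lines through the means. In the Rasgrp2 panel all points fall from 67.8 CPM or more at 0 h to 4.31 CPM or less at 20 h.

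Other genes of the pathway were counted in 6 lists, and their values are given for the 20 h response of the LAT experiment. Of all genes kept by the filter, 32.7% rose and 35.2% fell there in WT cells, and 9.97% rose and 10.1% fell in Lat-/- cells. Of 7 genes for other exchange factors and the adaptor Grb2, 5 fell and 0 rose in WT cells, led by Rapgef2 (-1.87 ± 0.17, adjusted p = 1.39e-25) and Rapgef6 (-1.27 ± 0.15, adjusted p = 2.04e-16), which act on RAP GTPases, whereas in Lat-/- cells 0 fell and 1 rose. Of 7 other diacylglycerol kinases, 5 had a read, and 3 fell and 1 rose in WT cells, led by Dgkq (-1.33 ± 0.21, adjusted p = 2.44e-09) and Dgkh (-1.14 ± 0.21, adjusted p = 5.45e-07). In Lat-/- cells 1 of these kinases fell and 1 rose. Of 14 other genes linked to diacylglycerol signaling, 13 had a read, and 8 fell and 2 rose in WT cells, against 1 and 1 in Lat-/- cells. Prkcq, the main protein kinase C of T cells, fell (-1.72 ± 0.15, adjusted p = 1.02e-28), as did Prkd2, a protein kinase D (-1.68 ± 0.15, adjusted p = 2.09e-27), and Prkca rose (2.14 ± 0.16, adjusted p = 3.3e-41).

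Among 9 other RAS GTPase-activating genes and NF1 partners, 3 rose and 1 fell in WT cells, and 2 rose and 1 fell in Lat-/- cells. The values that follow are from WT cells. Spred1, whose protein brings neurofibromin to the membrane, rose (1.91 ± 0.17, adjusted p = 5.27e-27), and Rasal3 fell (-1.88 ± 0.15, adjusted p = 1.82e-33). Of 8 RAS and RAP genes, 3 rose, with Rras2 (1.23 ± 0.15, adjusted p = 4.87e-15) and Hras (0.76 ± 0.16, adjusted p = 2.04e-05) leading, and 1 fell (Rras, -0.62 ± 0.23, adjusted p = 0.02099). Of 9 kinases and scaffolds of the ERK cascade, 2 rose, among them Ksr1 (0.57 ± 0.17, adjusted p = 0.003695), and 2 fell (Mapk3, -0.61 ± 0.16, adjusted p = 0.000441, and Araf, -0.50 ± 0.15, adjusted p = 0.003451). In Lat-/- cells 2 RAS and RAP genes rose and 0 fell, and 2 ERK cascade genes rose and 0 fell. Between genotypes, the difference of response at 20 h was upward for 27.3% and downward for 26.8% of all genes kept by the filter. It was upward for 5 and downward for 0 of the other exchange factors, for 3 and 0 of the other kinases of diacylglycerol, and for 5 and 2 of the other genes linked to diacylglycerol signaling. It was upward for 2 and downward for 3 of the other GTPase-activating genes, for 2 and 1 of the RAS and RAP genes, and for 2 and 1 of the ERK cascade genes.

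**Figure D5:**
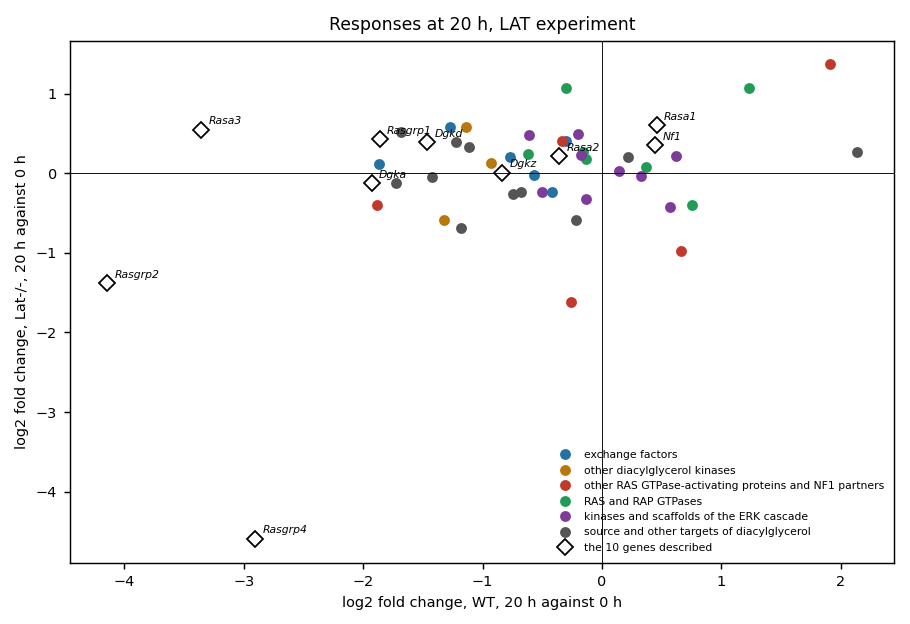
Log2 fold change at 20 h against 0 h in WT (x axis) and Lat-/- cells (y axis) of the LAT experiment, for 41 pathway genes that averaged 50 counts or more (colored by list) and the 10 members (open diamonds, named). Rasa3 and Rasgrp2 lie farthest to the left, at -3.36 and -4.14 in WT, and Rasgrp4 is the only point below -2 in Lat-/- cells, at -4.59.

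Rasgrp4 was too low for a comparison of patterns. Among the other 9 members, the genes closest in pattern to the 3 of largest range were found over the mean log2 levels of all 18 conditions, centered within each count table, among 10086 genes. Among the nearest to Rasa3 were Klf3 (a root mean square distance of 0.210 on the log2 scale) and Cdkn1b (0.218), which encodes the cell cycle inhibitor p27. Nearest to Rasgrp2 were Pglyrp2 (0.229), the gene model CT485616.1 (0.258), and Arl4c (0.370), and nearest to Rasgrp1 were Plekhg2 (0.193), Parp4 (0.220), and Ankrd12 (0.246). The 18 conditions share libraries between genes, so these distances are descriptions only.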

How the data were processed

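Poly(A) RNA of naive CD4+ T cells was sequenced as stranded single reads. The authors deposited raw read counts per gene, 1 table per experiment, made by demultiplexing with bcl2fastq 2.17.1.14, trimming, STAR alignment to GRCm38, and featureCounts, and their own tests used DESeq2. The annotation release and the handling of strand and multimapping reads are not given in the sources used here. The members and lists were chosen with earlier results of these data known.

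Each table was fitted on its own with edgeR 4.0.16 (R 4.3.3), using the quasi-likelihood test, TMM factors, a mean per genotype and time, and all genes with at least 1 read (32290 and 27780 genes). A gene passed at a Benjamini-Hochberg adjusted p under 0.05 over all of them, and tests are two-sided. The SE of a log2 fold change was not fitted directly. It is the size of the change divided by the square root of the test's F statistic. CPM are counts over TMM-scaled totals, and levels per kilobase divide them by a gene length. Replicates are biological per the labels. Alternatives were DESeq2 1.42.0, RLE factors, no factors, a low count filter, a replicate block, a fold of 2, the compared groups alone, and leaving out each replicate. Leaving out the 0 h libraries 2 labelled Cd5-/- and Cd6-/- was added after seeing the data. Named pathway genes averaged 50 counts or more and had the largest changes that passed. Scripts were tested on simulated data. Values of some genes that the naming rule selects are not reported here.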

Additional observations from a re-analysis of the deposited data

Results flagged for a closer look

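The response to stimulation differed between Lat-/- and WT cells, by the test of the difference itself, for 4 members at 4 h and 8 at 20 h (edgeR quasi-likelihood test, adjusted p under 0.05, 3 samples per group). Of all 27780 genes tested, 4169 differed at 4 h and 7300 at 20 h. Among the 13928 genes kept by the filter on low counts, these shares were 31.5% and 54.1%. At 4 h the log2 differences, Lat-/- minus WT, were 1.321 for Rasa3, 1.292 for Rasgrp2, 0.623 for Dgka, and -0.928 for Rasa2. At 20 h they were 3.907 for Rasa3, 2.763 for Rasgrp2, 2.29 for Rasgrp1, 1.853 for Dgkd, 1.808 for Dgka, 0.845 for Dgkz, 0.572 for Rasa2, and -1.692 for Rasgrp4. Several of these calls rest on single replicates. Leaving out 1 replicate gave 3 to 4 members at 4 h and 6 to 7 at 20 h, and Rasa2 (both times), Dgka at 4 h, and Rasgrp4 at 20 h were lost in at least 1 such fit. Rasa2 at 20 h was also lost with DESeq2 (adjusted p = 0.1026) and with the filter on low counts (0.06913).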

How the results depend on the processing

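Over 140 single-gene comparisons and 1290 values under alternatives, 1212 kept their direction and their side of the threshold, 28 lost a call, 28 gained one, and 22 changed sign, 0 of them among comparisons that passed. The cause was not tested. With a fold above 2 also required, the members passing went from 8 to 5 in the WT response at 4 h of the LAT experiment, from 8 to 2 and from 5 to 2 in the Lat-/- responses at 4 h and 20 h, from 6 to 3 for Lat-/- against WT at 4 h, and from 4 to 2 for the difference of response at 4 h. Leaving out 1 replicate gave 5 to 9 members in the Lat-/- response at 4 h (5 without replicate 1), 2 to 7 at 20 h (2 without replicate 1 and 3 without replicate 2), and 0 to 2 for the Cd5-/-, Cd6-/-, and Cd5-/-Cd6-/- cells against WT (2 without replicate 3).

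Per longest coding transcript, unstimulated WT levels were 120.8 for Rasgrp1, 369.2 for Dgka, and 131.8 for Dgkz in the CD5/CD6 experiment, and 402.4 for Dgka and 152.7 for Dgkz in the LAT experiment. The ratios of kinase to Rasgrp1 level at 0, 4, and 20 h were then 4.805, 3.893, and 9.273 in WT cells from the CD5/CD6 experiment, 5.923, 5.32, and 7.26 in WT cells from the LAT experiment, and 7.133, 7.849, and 5.25 in Lat-/- cells.

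Same-numbered samples deviated together on average by r = 0.229 in the CD5/CD6 experiment (145 of 198 pairs above 0.1), against -0.113 for differently numbered ones (44 of 396). In the LAT experiment these were 0.0705 (15 of 45) and -0.0344 (7 of 90). In 28 of 66 and 2 of 15 pairs of groups, every same-numbered pair was above 0.1. The fits without a block did not take the numbers as pairs, so a deviation shared by same-numbered samples stays in their spread. With a replicate block, 1 of 90 tests of the Cd5-/-, Cd6-/-, and Cd5-/-Cd6-/- cells against WT passed (Rasgrp2 in Cd5-/- at 4 h, -0.76 ± 0.19, adjusted p = 0.04562), and the Lat-/- response at 20 h had 6 members passing.

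Of the 22 changes of sign, all but 1 were in the LAT experiment. Without TMM factors they were Rasa1 in the WT response at 4 h of the CD5/CD6 experiment (-0.0541), Dgkz in the Lat-/- response at 20 h (-0.0534), Rasgrp1 in Lat-/- against WT at 4 h (0.0252), Rasa1 in Lat-/- against WT at 20 h (-0.0244, with -0.00813 by DESeq2 and -0.00811 with RLE factors), and Dgkz from 4 h to 20 h in WT cells (0.154, and 0.0357 with the compared groups alone). Leaving out 1 replicate gave ranges that cross 0 for the others. In WT responses at 4 h these were -0.376 to 0.06 for Dgkd and -0.0331 to 0.381 for Rasa1, and from 4 h to 20 h -0.143 to 0.1 for Dgkz. In the Lat-/- response at 20 h Dgkz ran from -0.0496 to 0.0807. For Lat-/- against WT they were -0.0003 to 0.164 for Dgkd, -0.204 to 0.238 for Rasa2, and -0.191 to 0.0304 for Nf1 at 0 h, -0.193 to 0.0411 for Rasgrp1 at 4 h, and -1.15 to 0.0275 for Rasgrp4 and -0.0338 to 0.0974 for Rasa1 at 20 h. For the difference of response they were -0.113 to 1.3 for Rasgrp4 and -0.63 to 0.0155 for Nf1 at 4 h, and -0.0276 to 0.263 for Rasa1 and -0.259 to 0.0958 for Nf1 at 20 h.

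Depth limits Rasgrp4 most, which had 3 to 14 counts in the LAT experiment at 20 h.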
